A study of Mus musculus with 8 samples.

Results

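The m6A map of *Wtap*-HKO liver comprised 19185 peaks of m6A IP over input in 10617 genes. All peaks that the authors called in this genotype were taken, and they made up 19185 of the 34820 peaks of IP over input in the lists of both genotypes. In m6ARIP-seq, fragmented RNA is pulled down with an antibody to m6A (IP) and sequenced beside the same RNA before the pull-down (input), and a peak is a stretch of exons in which IP reads exceed input reads. *Wtap*-HKO mice carried *Wtap* flox/flox alleles together with Alb-Cre on the C57BL/6 background, were fed normal chow and were examined at 8 weeks of age. The albumin promoter drives Cre in hepatocytes, so other cells of the liver kept their *Wtap* alleles and also gave RNA to the sample. Each of 2 replicates was pooled from 5 mice, and the 2 IP and 2 input libraries had been combined into 1 list before deposit. No value per library, SD or test across replicates was therefore possible, the depth is unknown, and the intervals given with shares cover counting error only. Fold enrichment is the authors' linear ratio of IP over input for a peak, and exonic length is the sum of the exon blocks of a peak.

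m6A is placed on nascent RNA by a complex in which METTL3 is the catalytic subunit, METTL14 its partner in binding RNA, and WTAP the adaptor that keeps both in nuclear speckles with VIRMA, ZC3H13, RBM15 and HAKAI. In mammalian mRNA the mark is known for its place in long internal exons and around the stop codon, mostly in a GGAC core, and it is read by YTH proteins that affect splicing, export, translation and decay. A related mark, m6Am, sits on the first transcribed nucleotide of many mRNAs, is made by PCIF1 and is bound by the same antibodies, so that a peak alone does not tell the marks apart. A liver sample holds hepatocytes beside Kupffer cells, sinusoidal endothelium, stellate cells, cholangiocytes and lymphocytes. In such bulk RNA, fewer cells of a type and less RNA per cell cannot be told apart.

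Many peaks lay at the start of a transcript, and the first bases of 10 chosen genes are given as examples. The first 5 genes had the strongest peaks that reached the first 50 bases of a start and held a GGAC core there. Sequences are RefSeq's for GRCm38.p6, on the transcript's strand in DNA letters, with GGAC in capitals, and the printed core lies within an exon block of the peak.
*Gdf2*, chr14:33941051-33941080, plus strand: taagcagtcagcaGGACaatgtgggcctat
*Arpc2*, chr1:74236523-74236552, plus strand: gggggctgggcggGGACcgggatcgtcaag
*S100a16*, chr3:90537274-90537303, plus strand: aggcaaggccgggagggagtgGGACagatt
*Eva1b*, chr4:126148003-126148032, plus strand: aGGACgcgggggtgccggctgcctctacta
*Gm5431*, chr11:48902116-48902145, minus strand: tccctccctttaaGGACaaggaaggtaaga
The fold enrichment of these peaks was 63.0 in *Gdf2*, which encodes the ligand BMP9, and 49.7 in *Arpc2*, a subunit of the actin-nucleating ARP2/3 complex. It was 47.0 in *S100a16*, a calcium-binding protein, 44.3 in *Eva1b* and 41.1 in *Gm5431*.

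The other 5 genes encode proteins that hepatocytes secrete, and had the strongest start-covering peaks of the lists of plasma proteins and apolipoproteins. The first 20 transcribed bases are shown, with base 1, where m6Am would sit in transcripts that begin with A, in capitals.
*Apom*, chr17:35131782-35131801, minus strand: Agagtagaccgagcggccat
*Crp*, chr1:172698056-172698075, plus strand: Aagcgttccaggactccttg
*Serpinc1*, chr1:160978583-160978602, plus strand: Acacttgcgtaagactcgcc
*C8b*, chr4:104766317-104766336, plus strand: Aacagaactgagagcagcaa
*Ambp*, chr4:63154153-63154172, minus strand: Tcatttgcctccggatcctt
The fold enrichments were 23.0 for *Apom*, a carrier of sphingosine 1-phosphate on HDL, 19.3 for *Crp*, C-reactive protein, 11.7 for *Serpinc1*, antithrombin, 10.6 for *C8b*, a complement subunit, and 10.3 for *Ambp*, the precursor of alpha-1-microglobulin. Of 59 genes of both lists with a peak, 31 had a peak that reached the first 50 bases of a start. As background, 2586 protein-coding starts were covered in this way and 7120 belonged to genes with a peak elsewhere only. The *Serpinc1* peak began 2 bases after the printed start, and the *Ambp* peak ran 627 nt upstream of that of *Ambp*. Peaks of *Apom* (by 130 nt), *Arpc2*, *Eva1b* and *Gm5431* also began upstream of the start. Most of the 180 nt *Eva1b* peak (chr4:126147834-126148013) lay upstream, while the *S100a16* peak began within the printed bases.

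The strength of the peaks spanned more than 2 orders of magnitude. The median fold enrichment was 5.93, the middle range (from the first to the third quartile) was 3.64 to 11.2, and the lowest and highest values were 1.16 and 281. In 5428 peaks (28.3%) the fold enrichment was at least 10, and in 60 peaks it was at least 100. The median exonic length was 240 nt, with a middle range of 179 to 390 nt and extremes of 84 and 4379 nt. Longer peaks were stronger, and the median fold enrichment was 4.27 in peaks of up to 200 nt, 5.76 from 201 to 400 nt, 9.32 from 401 to 1000 nt and 17.8 in the 522 peaks beyond 1000 nt. Across peaks, Spearman's rank correlation between fold enrichment and exonic length was 0.38, a description over peaks that share their libraries. The union of the peaks covered 6137 kb of exons. High fold enrichments need care, since 61.9% of those from 20 to below 50 and 66.6% of those from 50 to below 100 lay on whole multiples of 0.9035 (within 0.05), and the list holds no read counts. Whether such values rest on few or no input reads was not tested.

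**Figure D1:**
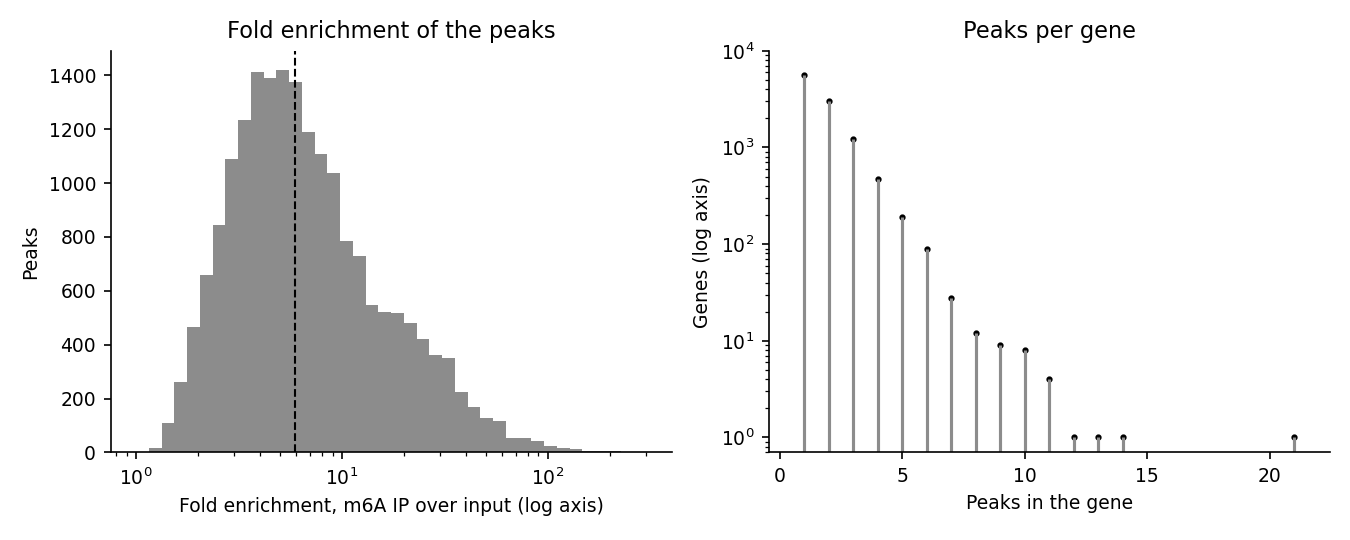
Left, number of peaks by fold enrichment of m6A IP over input (log axis), with the median of 5.93 as a dashed line. Right, number of genes (log axis) by peaks in the gene, which falls from 5550 genes with 1 peak to 1 gene with 21 peaks.

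The 10 peaks of highest fold enrichment lay in genes of varied function. None belonged to a list of hepatocyte function, but such lists hold few peaks, so this absence is not read as a result. Plasma proteins, apolipoproteins, cytochromes P450 and hepatocyte markers together had 157 of the 19185 peaks. *Cachd1*, an auxiliary protein of voltage-gated calcium channels, had the strongest peak at 281, 660 nt long and 32 nt from the 3´ end of the gene (chr4:101003122-101003781). *Plekhg1*, a guanine nucleotide exchange factor, followed with 264. A 3110 nt peak of the same strength, 264, lay in the unnamed gene ENSMUSG00000106847 (chr15:72806557-72809666), within the RefSeq spans of *Peg13*, an imprinted noncoding RNA, and *Trappc9*. Next came the zinc finger gene *Zfp758* (226), *Chst2*, a carbohydrate sulfotransferase (221), *Ptpn22*, a phosphatase of lymphocyte receptor signalling (213), *Apold1*, a gene of vascular endothelium (201), *Igsf10*, an immunoglobulin superfamily member (198), *D430019H16Rik* (197) and *Rab7b*, a small GTPase of endosomes (186). Of these 10 peaks, 8 lay in 1 exon block, and those of *Ptpn22* and *Igsf10* lay in 2. Their log10 false discovery rate ran from -57.4 to -163.

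Limiting the ranking to peaks with a log10 false discovery rate of -100 or lower kept the unnamed gene and *Rab7b* at the head and brought in a set of receptors. *Adrb1*, the beta-1 adrenergic receptor, had a peak of 174 in fold enrichment and 1601 nt. *S1pr3*, a sphingosine 1-phosphate receptor, reached 173 and *Gpr153*, an orphan receptor, 165. The extracellular protease *Adamts15* reached 167, and *Cd180*, a Toll-like receptor homologue of B cells and myeloid cells, 120. *Snx20*, a sorting nexin of leukocytes, followed with 119 and *Tmem229b* with 109. The unnamed gene ENSMUSG00000032846, within the span of *Zswim6*, had a peak of 125. By position, the peaks of *Cd180* and *Snx20* ended 101 and 62 nt from the 3´ end of the gene, whereas that of *S1pr3* began 141 nt from its 5´ end.

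Ranking by p-value instead put other peaks at the head. The 200 peaks of highest fold enrichment (65.4 and above) and the 200 peaks of lowest finite p-value (log10 p of -726 and below) had 0 peaks in common. With the 11 peaks included whose log10 p is minus infinity, 1 peak was shared, that of *Vsir*. Sets of 200 among 19185 peaks would share few peaks in any case, so the small overlap is not read as a result. Over all peaks with a finite p-value, Spearman's rank correlation between fold enrichment and log10 p was -0.19. The first set had a median fold enrichment of 86.3, a median log10 p of -43.1 and a median exonic length of 600 nt. The second had a median fold enrichment of 7.28, a median log10 p of -1225 and a median exonic length of 478 nt. Apolipoprotein and lipoprotein genes held 12 of the 200 peaks of lowest p-value, against 0.188% of all peaks. Plasma protein genes held 15, against 0.370% of all peaks, and mitochondrially encoded genes 6, against 0.0313%. Such shares were not limited to hepatocyte genes. Kupffer cell and macrophage markers held 5, against 0.109% of all peaks, and sinusoidal endothelium markers 3, against 0.0834%. None of these lists had a peak among the 200 of highest fold enrichment. At such small shares of all peaks, their absence from that set is not read as a result. The fold enrichment of the peak with the lowest finite p-value, in *Apoe*, the ligand of the LDL receptor on remnant particles, was 2.77. Those of *Fga*, the fibrinogen alpha chain, and *Alb*, albumin, were 6.03 and 2.97. *Fabp1*, the liver fatty acid-binding protein, had 9.55, *Serpina3k* 3.30 and *Cyp3a11*, a cytochrome P450 of drug metabolism, 7.51. Strong enrichment and a very low p-value met in *Clec4f*, a lectin of Kupffer cells, whose peak had a fold enrichment of 30.8 and a log10 p of -9370. These genes were chosen after their p-values were seen.

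For 11 peaks the deposited log10 p was minus infinity, and their fold enrichments ran from 37.9 to 73.6. They lay in *Vsir*, an immune checkpoint receptor (73.6), *Gdf2* (63.0), *Tnfaip8l2*, a regulator of immune cells (59.7), *Plekho1* (54.7), *Gja4*, connexin 37 of endothelium (53.3), *Bmp2*, a ligand made by liver endothelium (51.8), *Itga9*, an integrin chain (47.9), *Mmrn2*, an endothelial matrix protein (44.3), *Rgs1*, a regulator of G protein signalling in leukocytes (41.6), *Il10ra*, the interleukin-10 receptor (40.1), and *Islr* (37.9). They were named because of this value, after it was seen. In 660 peaks, these 11 included, the log10 false discovery rate was minus infinity, so the false discovery rate does not order the most significant peaks.

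**Figure D2:**
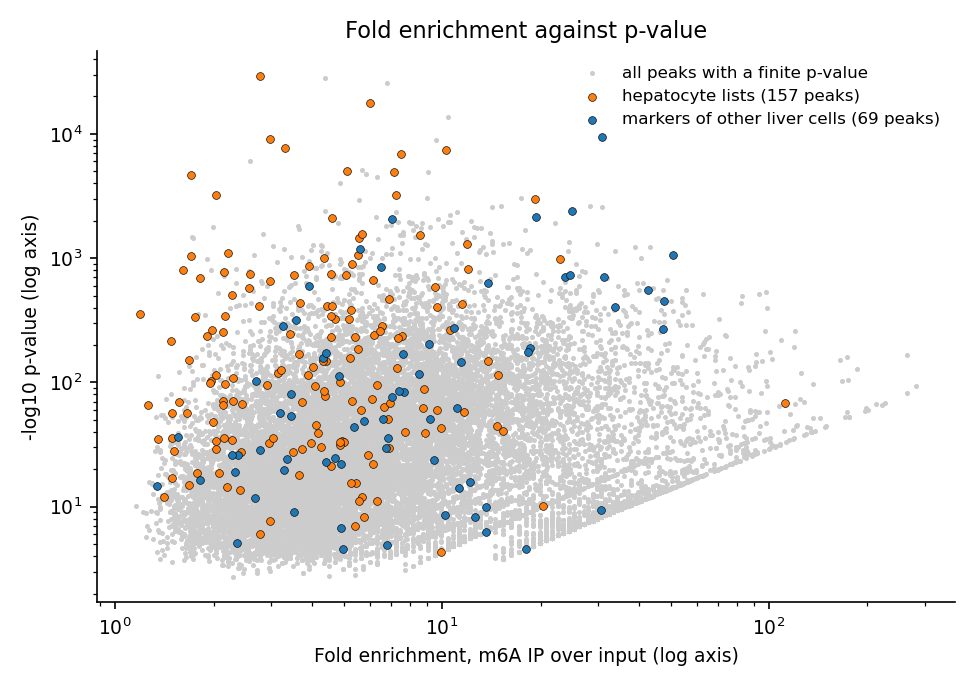
Fold enrichment (log axis) against -log10 p-value (log axis) for each peak with a finite p-value. Orange points are the 157 peaks of the hepatocyte lists (plasma proteins, apolipoproteins, cytochromes P450 and hepatocyte markers), with a median fold enrichment of 4.39, and blue points are the 69 peaks of markers of other liver cells, with a median of 6.83.

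Most genes with a peak had few of them. A single peak was called in 5550 of the 10617 genes (52.3%, 95% Wilson interval 51.3 to 53.2%), 2 peaks in 3039 genes, and 3 or more peaks in 2028 genes (19.1%), which together held 7557 peaks. The median of the highest fold enrichment in a gene was 5.92 in genes with 1 peak, 8.55 with 2, 10.3 with 3 and 12.2 with 4 peaks. A gene with more peaks offers more values for its highest one. Within the 4771 multi-peak genes placed on RefSeq spans, the highest fold enrichment was a median of 2.34 times the lowest.

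The genes with most peaks had between 10 and 21. *Ahnak*, which encodes a giant scaffold protein, had 21 peaks with fold enrichments from 3.52 to 36.9 and 9403 nt of peaks in all. *Spen*, a transcriptional corepressor of the RBM15 family, had 14 peaks (2.32 to 21.1), and *Stard9*, a mitotic kinesin, had 13 (5.78 to 75.9). *Kmt2a*, a histone H3K4 methyltransferase, had 12 peaks, none above 13.3. With 11 peaks each came *Col6a3*, a collagen VI chain (4.42 to 57.8), *Mki67*, the proliferation antigen Ki-67 (3.71 to 28.0), *Son*, a splicing cofactor of nuclear speckles (1.68 to 15.6), and *Myo18a*, an unconventional myosin (2.05 to 15.1). *Dchs1*, a giant protocadherin, had 10 peaks, all between 13.1 and 76.8. The unnamed gene ENSMUSG00000073902 had 10 peaks (5.65 to 75.9), packed into 7203 nt of chromosome 7. The median fold enrichment of the peaks ranged from 2.42 in *Son* to 29.4 in *Dchs1*, so a high number of peaks went with weak peaks in some genes and strong ones in others. Among the 342 genes with 5 or more peaks, 24 were chromatin modifiers (7.02%, against 0.669% of all genes with a peak) and 20 were Zfp genes (5.85%, against 2.71%). Among the 153 with 6 or more, there were 11 chromatin modifiers (7.19%) and 6 Zfp genes (3.92%). Transcript length bears on how many peaks a gene can hold, and its part in these shares was not tested.

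The longest peaks were found in *Plec*, the cytolinker plectin (4379 nt in 3 blocks, fold enrichment 10.3), *Ankrd11*, a chromatin regulator (3539 nt, 7.70), *Mpeg1*, the macrophage pore-forming protein perforin-2 (3528 nt, 22.1), ENSMUSG00000106847 (above), *Gdf2* (2988 nt, 63.0), *Filip1l* (2967 nt, 27.5), *Ccdc80*, a matrix protein (2700 nt, 26.3), and *Samd9l*, an interferon-induced gene (2669 nt, 14.1). The unnamed gene ENSMUSG00000063286 gave a pair of overlapping peaks of 2893 and 2787 nt. The *Gdf2* peak ran from the first to the last base of the gene with its intron left out. A peak lay in 1 exon block in 80.8% of cases and in more than 1 in 3684 peaks (19.2%). The most blocks, 8, were seen in *Os9*, a lectin of ER-associated degradation (5.80), *Eif3a*, a translation initiation factor subunit (5.33), and *Ubxn1*, a ubiquitin-binding adaptor (3.19).

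More peaks lay toward both ends of the gene span than in its middle. The midpoint of the peak lay in the 3´-most 10% of the gene span, introns included, for 35.4% of the 17445 peaks that could be placed on a RefSeq gene, and in the 5´-most 10% for 20.9%. The 5 bins of this width from the third to the seventh held between 3.69% and 4.64% each. Peaks lie in exons, and the share of exonic bases in each bin was not computed. Whether peaks at the ends exceed the exonic sequence there was therefore not tested. An edge within 200 nt of the gene start was found in 3177 peaks (18.2%) and within 200 nt of the gene end in 1442 peaks (8.27%). The strength was similar along the gene, with medians between 5.49 and 6.09 in the 10 bins. The share of strong peaks (fold enrichment of 10 or more) was 24.3% in the first bin and 29.5% in the last. Peaks near the start were shorter (median 210 nt) than those near the end (299 nt) or inside the gene (270 nt). They also crossed splice junctions more often, with more than 1 exon block in 37.4% (35.7 to 39.1%) of start peaks, 16.6% (16.0 to 17.3%) of inner peaks and 7.0% (5.78 to 8.46%) of end peaks. In 2861 genes with 2 placed peaks, the stronger one was the 5´ one in 57.3% (55.4 to 59.1%). In 1153 genes with 3 peaks the first was strongest in 42.6%, the second in 29.0% and the third in 28.4%.

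**Figure D3:**
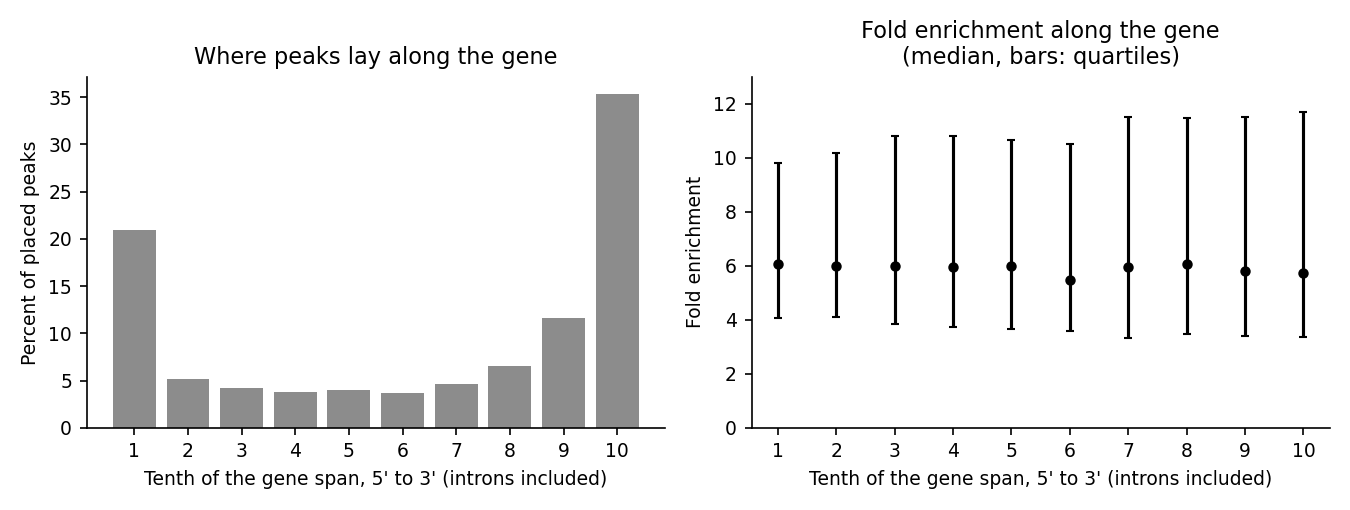
Left, percent of the 17445 placed peaks by which of 10 equal bins of the gene span holds the midpoint, with 20.9% in the first and 35.4% in the last bin. Right, fold enrichment by bin, with points for medians (5.49 to 6.09) and bars from the first to the third quartile.

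Of the 14088 peaks of genes with a start in the sequence table, 2434 (17.3%) reached the first 50 bases of a start, in 2392 genes, and 1263 (8.97%) covered base 1 itself. The median fold enrichment was 6.4 in start-covering peaks and 5.65 in the other peaks of these genes. GGAC, searched on the transcript's strand of the first 50 bases, was present in 21.2% (19.7 to 22.8%) of the 2586 protein-coding starts covered by a peak, in 19.9% (19 to 20.9%) of the 7120 starts of genes with a peak elsewhere, and in 4247 (20%) of all 21263 starts. GGACT, which is part of the GGAC matches, was present in 5.84%, 5.35% and 5.86%. The first base was A in 33.1% (31.3 to 34.9%) of covered starts, 28.7% (27.6 to 29.7%) of starts of genes with a peak elsewhere and 43.7% (42.8 to 44.6%) of starts of genes without a peak. Median GC content of the 50 bases was 66% in covered starts and 56% in genes without a peak, and its part in these shares was not tested. Among covered starts, the median of the highest fold enrichment was 6.55 for A, 6.62 for C, 6.4 for G and 6.51 for T as the first base. It was 6.125 (5.82 to 6.5) at covered starts with GGAC and 6.56 (6.32 to 6.78) at those without. Covered starts with a fold enrichment of 10 or more held GGAC in 18.8% (16.0 to 21.9%).

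Gene classes differed in whether, how strongly and where they had peaks. At least 1 peak was present in 9367 of 21900 RefSeq protein-coding genes (42.8%). A gene must be expressed in liver for a peak to be called, so the shares below also carry the expression of the list. The lists were compared by their counts and medians, with no test.

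Hepatocyte function was represented by many genes with weak peaks. Of 57 genes for plasma proteins, 43 had a peak, 71 peaks in all with a median fold enrichment of 4.35, and 6 of the 71 reached 10. The strongest were *Igf1*, the growth factor released by hepatocytes (20.3), *Crp* (19.3) and *Kng1*, kininogen (11.9), and the most peaks were in *F10*, coagulation factor X (5 peaks, 1.35 to 6.31). Apolipoprotein and lipoprotein genes had a peak in 16 of 20 and a median of 3.93. *Apob*, the structural protein of VLDL, had 9 peaks between 1.26 and 5.71, while *Apom* reached 23.0, the cholesterol exporter *Abca1* 9.67 and the receptor *Lrp1* 9.94. The median was 3.28 in fatty acid oxidation and ketogenesis (17 of 25 genes), with *Etfa*, an electron transfer flavoprotein, at 12.8, *Ehhadh*, a peroxisomal enzyme, at 11.8, *Bdh1*, a ketone body enzyme, at 7.47, and 4 peaks in *Ppara*, the receptor that governs the pathway (2.44 to 6.54). It was 3.11 in lipogenesis (18 of 27 genes), in which the sterol sensor factor *Srebf2* reached 12.1, *Dgat1*, which makes triglyceride, 9.71 and *Fasn*, fatty acid synthase, 6.70, and *Acaca*, acetyl-CoA carboxylase, had 4 peaks (1.95 to 5.29). Glucose handling had a peak in 19 of 21 genes and a median of 5.32. There, *Gsk3b*, a kinase that inhibits glycogen synthase, reached 26.2, *Foxo1*, a factor of gluconeogenic genes, 16.3 and *Irs1*, an insulin receptor substrate, 14.5, and *Irs2*, its relative, had 6 peaks between 5.79 and 9.13.

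In drug metabolism and housekeeping genes, the share with a peak was low in ribosomal proteins and near the background of 42.8% in the other lists. A peak was present in 34 of 93 cytochrome P450 genes (36.6%), with a median fold enrichment of 4.94. The outlying value was *Cyp1b1*, an extrahepatic P450, at 112, followed by *Cyp1a1* at 15.4 and *Cyp4f14* at 14.8, and *Cyp2d22* had 3 peaks. Of 65 phase II conjugation genes 25 had a peak (38.5%, median 3.95), led by the glucuronosyltransferase *Ugt1a7c* (31.6, the stronger of 2 peaks), *Ugt8a* (26.2) and the glutathione transferase *Gsta3* (10.4). Cytosolic ribosomal proteins had a peak in 15 of 81 genes (18.5%), with a median of 3.08. *Rpl18* had 2 peaks and the highest value, 16.3, followed by *Rps14* at 6.93 and *Rpl24* at 6.78. Many ribosomal protein genes have pseudogene copies, so their reads may be shared. Respiratory chain subunits had a peak in 40 of 91 genes (44.0%), with a median of 4.39. *Atp5a1*, of the ATP synthase, reached 25.1, *Ndufv3*, of complex I, 11.6, and *Atp5j* had 3 peaks.

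In several metabolic lists, peaks lay at gene starts more often than the 18.2% of all placed peaks. Within 200 nt of the start were 27 of 46 peaks of respiratory chain subunits (58.7%), 16 of 32 of phase II genes (50%), 20 of 45 of cytochrome P450 genes (44.4%), 29 of 70 of plasma protein genes (41.4%) and 12 of 29 of fatty acid oxidation genes (41.4%). Kupffer cell and macrophage markers (10 of 20) and histone genes (10 of 17) had shares of that size too, while glucose handling had 10 of 38 (26.3%), apolipoproteins 9 of 36 (25%) and lipogenesis 6 of 26 (23.1%). At the other extreme were Zfp genes with 21 of 664 (3.16%), the m6A writer complex with 1 of 22 (4.55%), chromatin modifiers with 22 of 263 (8.37%) and chemokine and interleukin genes with 10 of 104 (9.62%). Among the 200 peaks of lowest finite p-value the share was 34.8% (28.2 to 42.0%), and among the 200 of highest fold enrichment 5.98% (3.37 to 10.4%). Genes differ in length, and a short gene has more of its span within 200 nt of an end. The part of gene length in these shares was not tested list by list.

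**Figure D4:**
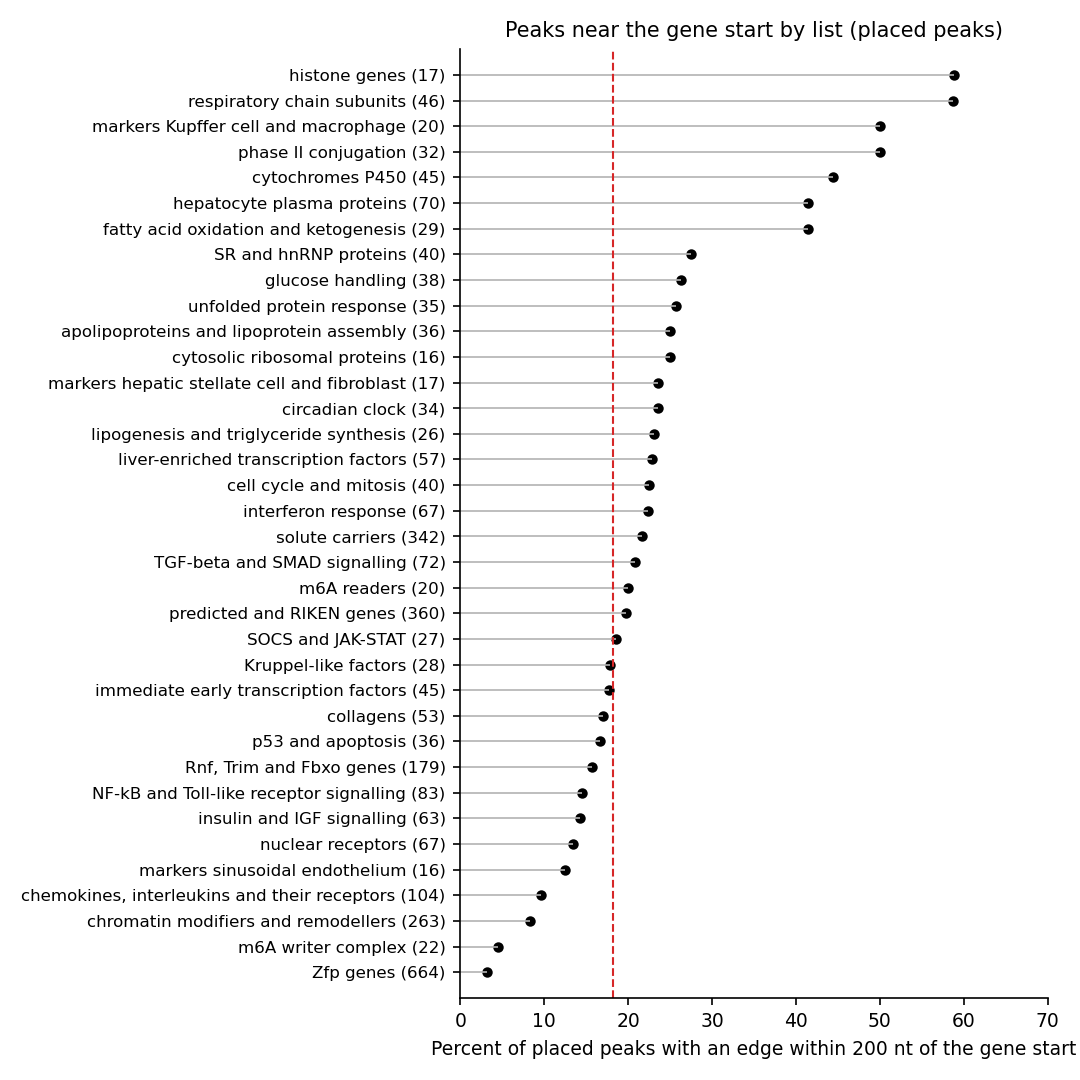
Percent of placed peaks with an edge within 200 nt of the gene start for each list with at least 15 placed peaks, with the 18.2% of all placed peaks as a dashed red line. Respiratory chain subunits and histone genes have the highest shares, 58.7% and 58.8%, and Zfp genes the lowest, 3.16%.

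Chromatin modifiers carried many peaks per gene. A peak was present in 71 of 79 genes. Of these 71, 46 had 3 or more peaks, against 2028 of all 10617 genes with a peak (19.1%). The part of transcript length in the number of peaks was not tested. Their median fold enrichment was 5.55, and the highest values were 51.8 in *Nsd1*, a histone H3K36 methyltransferase, 33.4 in *Bptf*, a subunit of the NURF remodeller, and 31.3 in *Ep300*, a histone acetyltransferase. All 25 liver-enriched transcription factors had a peak, with a median of 4.52. *Onecut2* reached 23.9, *Cebpd*, an acute-phase factor, 20.4 and *Onecut1* 19.9. Nuclear receptors had a peak in 31 of 49 genes and a median of 4.64, with 97.3 in *Rxra*, the common partner of metabolic receptors, 56.0 in *Nr2f1* and 35.9 in *Nr1h5*, and 4 peaks in *Nr2f2* (5.52 to 20.6). SR and hnRNP proteins, which guide splicing, had a peak in 24 of 32 genes and a median of 4.54, with *Hnrnpa0* at 17.9, *Hnrnpd* at 14, *Srsf9* at 12.3 and 4 peaks in *Srsf4* (2.0 to 9.58).

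Immediate early and Zfp genes had stronger peaks than the metabolic lists. The immediate early transcription factors had a peak in 21 of 25 genes, and 21 of their 46 peaks (45.7%) had a fold enrichment of 10 or more, against 28.3% of all peaks. Their median was 8.67. *Egr2* reached 88.5, *Klf2*, a flow-responsive factor of endothelium, 43.2 and *Klf4* 33.7, and *Egr3* had 4 peaks, all between 22.6 and 28.0. Kruppel-like factors, which share *Klf2* and *Klf4* with that list, had a peak in 11 of 17 genes with a median of 5.78, and *Klf13* had 4 peaks, the strongest at 14.5. Zfp genes had a peak in 288 of 397 (72.5%), 675 peaks with a median of 7.59, and 106 genes had 3 or more. After *Zfp758*, the strongest were *Zfp52* at 116 and *Zfp366* at 105, and *Zfp865* had 8 peaks (5.11 to 14.2). Zfp genes form a multigene family, and reads of close copies may be split. Rnf, Trim and Fbxo genes, most of them ubiquitin ligases, stood at the median of all peaks (5.87, 102 of 168 genes), with *Rnf157* at 138, *Trim36* at 71.4 and *Rnf122* at 51.5 and 6 peaks in *Rnf213* (3.13 to 25). Circadian clock genes had a peak in 17 of 21 and a median of 5.49. *Csnk1e*, a clock kinase, reached 58.7 with 5 peaks, the repressor *Bhlhe41* 28.9 and the receptor *Rora* 21.7. Unfolded protein response genes had a peak in 20 of 22 and a median of 3.85, led by *Eif2ak3*, the ER stress kinase PERK (16.5, 3 peaks), *Ppp1r15a* (11.3) and *Ppp1r15b* (11).

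Immune and signalling lists lay above the median of all peaks. Chemokines, interleukins and their receptors had a peak in 61 of 148 genes (41.2%), and 53 of their 108 peaks (49.1%) reached a fold enrichment of 10, with a median of 9.22. The strongest were receptors of lymphocytes, *Il7r* at 101, *Ccr7* at 60.7 and *Cxcr3* at 60.1, and *Il1rap*, a chain of the interleukin-1 receptor, had 5 peaks (1.84 to 16.0). NF-kB and Toll-like receptor genes had a peak in 36 of 40 and a median of 7.61, with *Tlr7* at 51.0, *Tlr6* at 48.8 and *Ticam2*, an adaptor, at 45.2, and 5 peaks in *Tlr9* (9.94 to 43.4). Interferon response genes had a peak in 31 of 33 and a median of 7.10. *Ifnar2*, a receptor chain, reached 54.2, *Ifit1*, an RNA-binding effector, 26.7 and *Irf3* 26.2, and *Parp14* had 6 peaks (3.64 to 22.8). TGF-beta and SMAD genes had a peak in 28 of 31 and a median of 7.38, with the receptors *Bmpr2* at 79.5 and *Acvr2b* at 37.9, the ligand *Bmp2* at 51.8, and 5 peaks in the corepressor *Ski* (2.14 to 12.3). SOCS and JAK-STAT genes had a peak in 16 of 19 and a median of 6.28, with the feedback inhibitors *Socs3* at 18.2 and *Socs1* at 16.0, the kinase *Jak1* at 16.6 and 4 peaks in *Stat2* (1.83 to 13.4).

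In lists of growth, survival, transport and matrix, medians lay on both sides of the 5.93 of all peaks. Insulin and IGF signalling genes had a peak in 24 of 28 and a median of 6.11, with *Igf1r* at 53.3 and *Pik3r1*, the regulatory subunit of PI3K, at 23.2. In p53 and apoptosis genes, 24 of 30 had a peak with a median of 6.78. The antiapoptotic *Bcl2* had 5 peaks between 6.78 and 136, the death ligand *Fasl* reached 36.1 and the initiator caspase *Casp9* 29.8. Cell cycle genes had a peak in 23 of 39 and a median of 5.39, led by *Ccnd2* at 32.2, *Mki67* at 28.0 and the helicase subunit *Mcm7* at 24.4. Solute carriers had a peak in 193 of 389 (49.6%) and a median of 5.26. *Slc12a2*, a chloride cotransporter, reached 58.7, *Slc28a2*, a nucleoside transporter, 39.8 and *Slc9a9*, a proton exchanger, 39.3, and *Slc45a4* had 7 peaks (2.04 to 23.5). Collagens had a peak in 23 of 44 genes and a median of 7.54, with *Col8a1* at 92.1, *Col6a3* at 57.8 and *Col8a2* at 37.9.

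**Figure D5:**
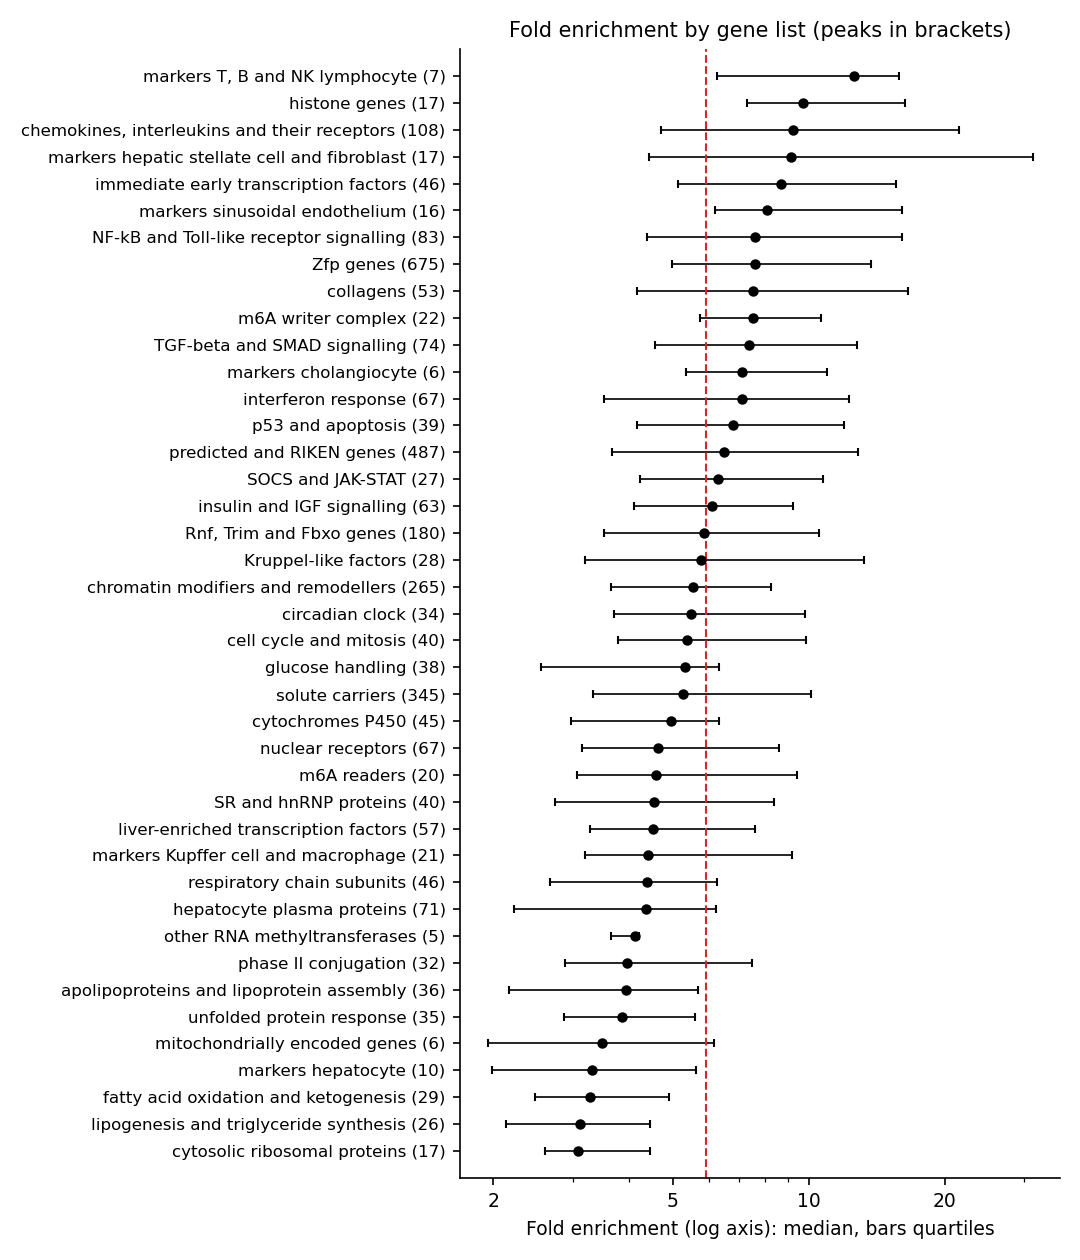
Median fold enrichment (log axis) of the peaks of each gene list with at least 5 peaks, with bars from the first to the third quartile and the number of peaks in brackets. The dashed red line marks the 5.93 of all peaks. The medians run from 3.08 in cytosolic ribosomal proteins (17 peaks) to 12.6 in lymphocyte markers (7 peaks).

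Markers of every liver cell type examined were among the genes with a peak. Of 10 hepatocyte markers 7 had a peak, with a median fold enrichment of 3.31 and a highest value of 11.5 in *Hnf4a*, the nuclear receptor of hepatocyte identity, which had 3 peaks. *Cyp3a11* reached 7.51 and *Ttr*, transthyretin, 6.18. Kupffer cell and macrophage markers had a peak in 11 of 12 genes and a median of 4.41, with *Clec4f* at 30.8, the complement gene *C1qa* at 19.4 and *Timd4*, a receptor for apoptotic cells, at 11.3, and 3 peaks in the scavenger receptor *Marco* (2.69 to 11.1). Sinusoidal endothelium markers had a peak in 8 of 10 genes and a median of 8.09. *Kdr*, the VEGF receptor 2, had 3 peaks up to 51.0, *Eng*, endoglin, reached 24.9 and *Oit3* 24.7. Stellate cell and fibroblast markers had a peak in 10 of 12 genes and a median of 9.15, with *Pdgfra*, a PDGF receptor, at 47.7 (3 peaks), *Lrat*, which esterifies retinol for storage, at 47.3 and *Hand2* at 33.8. Lymphocyte markers had a peak in 5 of 10 genes and a median of 12.6 over 7 short peaks (median 120 nt), with the coreceptor *Cd4* at 30.7, *Ms4a1*, CD20 of B cells, at 18.1 and *Cd8a* at 13.6 (3 peaks). For *Cd4*, *Ms4a1* and the strongest *Cd8a* peak, the log10 false discovery rates were -8.43, -3.77 and -9.01. The median over all peaks with a finite value was -21.1. Cholangiocyte markers had a peak in 4 of 8 genes and a median of 7.12, led by *Sox9* at 18.6 (2 peaks) and *Epcam* at 12.2. Erythroid markers had only the globin peaks of *Hbb-bs* (3.27) and *Hbb-bt* (2.78), which are near-identical genes.

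Pooled, the hepatocyte lists (plasma proteins, apolipoproteins, cytochromes P450 and hepatocyte markers) had 157 peaks with a median fold enrichment of 4.39, and 8.92% (5.39 to 14.4%) of them reached 10. Markers of the other liver cells had 69 peaks with a median of 6.83, and 36.2% (25.9 to 48.0%) reached 10. The contrast did not hold for each list. Kupffer cell and macrophage markers (21 peaks) had a median of 4.41, with 23.8% at 10 or more, and erythroid markers a median of 3.025. Medians in cholangiocyte, endothelium, stellate cell and lymphocyte markers ran from 7.12 to 12.6, the last over 7 peaks. The hepatocyte lists include *Cyp1b1*, an extrahepatic P450, at 112. The medians were in the opposite order by p-value, with a log10 p of -109 in the hepatocyte lists and -56.3 in the other markers. The 95% intervals of these medians, -169 to -70.8 and -147 to -28.8, overlap. The abundance of each transcript in input, which bears on both measures, is not in the list, and its part in these differences was not tested.

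Transcripts of the m6A machinery had peaks themselves. In the writer complex, 6 of 8 genes had a peak, 22 peaks with a median fold enrichment of 7.51, and *Mettl3* and *Mettl14* had no peak in the list. *Wtap* (ENSMUSG00000060475), the deleted gene in hepatocytes, had 3 peaks of 4.47, 20.5 and 20.6, and such peaks do not tell which cells gave the RNA. *Virma*, the scaffold of the complex, had 6 peaks of similar strength, from 4.11 to 6.47, 5 of them in the middle part of the gene and 1 that ended 549 nt before its 3´ end. *Zc3h13* had 3 peaks from 9.21 to 13.9, *Rbm15* 4 from 3.90 to 10.3, and *Cbll1*, which encodes HAKAI, 1 at 5.65. *Rbm15b* had 5, from 8.00 to 17.7, of which the 2 strongest (778 and 534 nt) overlap each other. Among other methyltransferases, *Pcif1* had 3 peaks from 3.33 to 4.76, *Mettl16*, which methylates U6 RNA, 1 at 4.20, and *Mettl5*, which methylates ribosomal RNA, 1 at 3.64. The *Pcif1* peak of 4.12 lay outside the RefSeq span of that gene and inside that of *Zfp335*.

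Readers had a peak in 8 of 11 genes, with a median of 4.59. *Ythdc1*, the nuclear reader, had 5 peaks at 3.73, 7.95, 9.45, 12.2 and 58.5, the strongest being a 689 nt peak at 77.1% of the gene span. The cytoplasmic readers all stayed below that peak, with *Ythdf1* at 2.60 to 3.32 (3 peaks), *Ythdf2* at 1.94 to 4.67 (3 peaks) and *Ythdf3* at 7.73 and 13.9. The higher *Ythdf3* value exceeded the other *Ythdc1* peaks. *Ythdc2*, a helicase of germ cells, had 1 peak of 19 whose log10 false discovery rate, -4.02, was near the limit of the list (-2.01). *Prrc2a* had 3 peaks from 2.68 to 9.41, *Hnrnpa2b1* 2 at 2.76 and 4.51, and *Hnrnpc* 1 at 1.82. Both erasers had 1 peak each, at 7.83 in *Fto* (log10 false discovery rate -4.13) and at 6.02 in *Alkbh5* (-125). Of the metabolic genes that the study followed, *Cd36*, a fatty acid transporter, had 1 peak of 2.98 and *Ccl2*, a monocyte chemokine, 1 of 5.42, and *Igfbp1*, an IGF-binding protein, had none.

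Noncoding and unusual transcripts formed a small share. The list gave no gene name for 1344 peaks (7.01%) in 1052 Ensembl genes, and 368 of them lay on the same strand in the span of a RefSeq lncRNA, with a median fold enrichment of 8.83. Of 19 listed lncRNA genes with a known strand, 8 had such a peak. *Tug1* had 7, from 3.78 to 39.8, and *Kcnq1ot1*, an imprinted antisense RNA, 2 at 20.8 and 33.4. *Malat1*, the abundant RNA of nuclear speckles, had 5, from 2.46 to 15.9, which include 2 nearly identical pairs. Histone genes had 17 peaks in 12 genes with a median of 9.69, and 10 of 17 lay within 200 nt of the start, in genes that are mostly short. *Hist2h2be* reached 52.4, *Hist3h2a* 24.5 and *Hist1h4k* 21.7, in families of near-identical copies, while *Macroh2a1*, a histone variant, had 3 peaks (2.10 to 7.37). Predicted and RIKEN genes had 487 peaks in 294 genes, with a median of 6.49, and after *D430019H16Rik* the strongest were *I830077J02Rik* at 84.0 and *9930111J21Rik2* at 83.1. *Resf1*, listed under its RIKEN name, had 8 peaks (2.82 to 18.8). The mitochondrial genome gave 6 peaks, all in subunits of complex I. *mt-Nd5* had peaks of 10.4 and 1.72, *mt-Nd2* of 6.77 and 4.40, *mt-Nd6* of 2.58 and *mt-Nd4* of 1.73, and the peaks of *mt-Nd5* and *mt-Nd6* overlap where these genes meet on opposite strands.

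MicroRNA hairpins lay inside a few peaks of the map. They were matched by RefSeq position and strand to an exon block of a peak, for 14 of the 1005 hairpins in the table. A pair of hairpins fell in 1 peak of *Dgcr8*, the RNA-binding subunit of the microprocessor that cuts such hairpins from longer transcripts (chr16:18284152-18284691, minus strand, fold enrichment 22.6). Their mature sequences are shown with the seed (bases 2 to 8) in capitals, to show that the 4 arms share no seed.
mmu-miR-1306-5p: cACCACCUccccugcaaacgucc
mmu-miR-1306-3p: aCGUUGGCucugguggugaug
mmu-miR-3618-5p: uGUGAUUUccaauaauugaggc
mmu-miR-3618-3p: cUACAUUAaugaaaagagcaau
The strongest peak over a hairpin was that of *P2rx7*, an ATP-gated channel of macrophages, over miR-8115 (32.2). A peak of *Chpf2*, a chondroitin synthase gene, covered miR-671 with 16.4. A peak over a hairpin covers the host transcript too, and the 2 cannot be told apart.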

How the data were processed

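m6ARIP-seq was done on RNA of *Wtap*-HKO liver (150 bp reads, 300 µg total RNA per pool of 5 mice). According to the methods and the submitters' processing notes, the authors used fastp 0.19.11, BWA 0.7.12 (GRCm38, Ensembl release 92), HOMER 4.9.1 and exomePeak 2.16.0, and deposited peaks with the 2 IP and 2 input libraries combined. How replicates were combined is not given in the sources used here. The deposited fold enrichment is the linear ratio, per peak, of IP to input, the deposited log10 p-value and log10 false discovery rate are scores of the peak caller, and 1 column repeats the p-value itself. Depth per library is unknown. The deposited list of genotype differences holds the authors' own comparison and was not used. The *Wtap* flox/flox list was only counted.

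Peaks were counted by gene name, or by Ensembl identifier where no name is given, in Python 3.11.15 (numpy 2.4.6, pandas 2.3.3), and starts are printed 1-based. Placement used RefSeq spans of GRCm38.p6 with the same symbol. Shares carry 95% Wilson intervals (scipy 1.17.1), and peaks of a gene are not independent. No test was run. Scripts were tested on simulated data, and figures were drawn with matplotlib 3.10.9.

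Named genes were *Wtap*, *Igfbp1*, *Cd36*, *Ccl2*, the m6A machinery, the 10 peaks of highest fold enrichment (also at a log10 false discovery rate of -100 or lower), the 10 genes with most peaks, the 10 longest peaks, the 3 with most exon blocks, and in each list the 3 genes of highest fold enrichment and the gene with most peaks. The members and lists were chosen with earlier results of these data known. Peak sequences and stop codons were not analysed here. A few genes that this rule names are not reported here.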

Additional observations from a re-analysis of the deposited data

How the results depend on the processing

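No paired analysis was possible because the replicates were combined before deposit and no value came from a test, and no replicate could be left out. A false discovery rate under 0.01 held for every peak. Under 1e-05, the median fold enrichment moved from 5.93 to 6.03, the median exonic length from 240 to 268 nt, single-peak genes from 52.3 to 54.3% and peaks with more than 1 exon block from 19.2 to 19.8%. At a fold enrichment of at least 2, the median was 6.16 and single-peak genes 54.1%. The genomic span had a median of 299 nt. Peaks near the start fell from 18.2% to 15.2% at a distance of 100 nt and to 16.6% in genes longer than 5000 nt, and peaks near the end from 8.27% to 5.84% and 7.16%. Counting only peaks over base 1, an alternative chosen after seeing the data, gave 8.97% in place of 17.3%. Counts of peaks and genes moved by less than 1.5 times under all alternatives run, among them merging of overlapping peaks (18793 remained) and counting by Ensembl identifier (10634 genes). The number of genes with a peak per list changed by over 1.5 times in 1 of 40 lists, the erasers, at a false discovery rate under 1e-05, and in 0 of 40 at a fold enrichment of at least 2. Taking the highest fold enrichment per gene, also added after seeing the data, moved the median beyond its interval in 13 of 40 lists. Ranking the 200 strongest peaks by false discovery rate, with ties ordered by fold enrichment, moved the share of 8 of 44 lists beyond its interval. The 660 peaks with a log10 false discovery rate of minus infinity are tied, so these 200 were picked among them by fold enrichment. Taking 1000 peaks moved 0 of 44. Many lists held none of the 200 peaks, so their intervals are wide and the count of 0 shows little. The share of chemokine and interleukin genes went from 0.5% to 1.5% and counted as unmoved. Long noncoding RNAs, matched by position elsewhere, entered this count without members and could not move. Without counts per library, no smallest detectable enrichment can be stated.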

Other observations

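The genes were also grouped by the InterPro terms in the list. Of 127 terms with at least 40 genes, a grouping chosen after the data were seen, the highest median of the strongest peak per gene was 30.8, for a class of G protein-coupled receptors (91 genes). Among other high terms it was 22.2 for immunoglobulin I-set proteins (60 genes), 20.8 for homeobox proteins (52 genes), 17.5 for proteins with a collagen triple helix (43 genes) and 16.8 for C-type lectin-like proteins (43 genes), against 7.60 over all genes with a peak. The lowest were 4.39 for the thioredoxin-like superfamily (60 genes), 4.62 for NAD(P)-binding proteins (79 genes), 5.14 for the ubiquitin domain (41 genes) and 5.37 for S-adenosylmethionine-dependent methyltransferases (64 genes). Of the homeobox genes 40.4% had 3 or more peaks, against 7.59% of the NAD(P)-binding genes and 19.1% of all genes.

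The fold enrichments were not spread evenly. Of the 2074 peaks with a fold enrichment from 20 to below 50, 1284 (61.9%) lay within 0.05 of a whole multiple of 0.9035, the spacing that fitted best of those tried, where evenly spread values would give 11.1%. From 50 to below 100 it was 225 of 338 peaks (66.6%), and from 10 to below 20 it was 793 of 2956 (26.8%). Between 20 and 50, peaks on the spacing had a median log10 false discovery rate of -8.91 and a median exonic length of 211 nt, and the other peaks -77.2 and 568 nt. How the ratio was scaled is not given in the sources used here, the list holds no read counts, and whether peaks on the spacing rest on few input reads was not tested.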
